A study of Homo sapiens with 9 samples.

Results

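PAX3, PAX6, PAX7 and PAX8, 4 genes of the paired box family, were followed across human embryonic stem cells and the neuroectoderm and mesendoderm made from them. The 4 genes were taken by symbol. They hold 22 of the 38759 transcript rows of the expression table, and each gene was represented by its row with the highest mean, 1 of 21417 gene symbols. PAX proteins are transcription factors that bind DNA through the paired domain, and PAX3, PAX6 and PAX7 carry a complete homeodomain as well, while PAX8 keeps only a remnant of it. PAX6 marks early neural tissue and is required for the eye and much of the brain, PAX3 and PAX7 act in the dorsal neural tube, the neural crest and muscle precursors, and PAX8 acts in the thyroid, the kidney and the inner ear. In human pluripotent cells turned to a neural fate, PAX6 is a widely used sign of neuroectoderm.

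The cells were H9, an established human embryonic stem cell line, and each group had 3 libraries. Undifferentiated cells at day 0, called hESC below, were grown in mTeSR1 medium on Matrigel. Neuroectoderm at day 5 had received 200 nM NOGGIN, an antagonist of BMP ligands, and 10 µM SB431542, an inhibitor of the activin and Nodal type I receptors. Mesendoderm at day 5 had received 5 ng/ml of the ligand hBMP4 in mTeSR1. Both day 5 groups therefore differ from hESC in time as well as in their factors, and all 9 libraries come from 1 cell line. Levels are RPKM, reads scaled to transcript length in kilobases and to library size, given by replicate number or as mean ± SD over 3 libraries. Differences are on the log2(RPKM + 1) scale with their SE, a scale that understates changes of low genes. Adjusted p-values are those of limma with Benjamini-Hochberg adjustment over the 14473 genes that averaged at least 0.5 RPKM, and a gene passed at an adjusted p under 0.05. The labels do not say that the 3 libraries of a group were separate cultures, so the p-values rest on a spread that may be technical only.

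Whole steps in the low values of each library corresponded to denominators of 36.9 to 70.0 M reads, so that a 1 kb transcript with 3 reads would be listed at 0.0429 to 0.0814 RPKM, which covers counting error only. Transcript lengths are not in the table, and a longer transcript holds more reads at the same RPKM. Libraries correlated more within a group (Pearson r across genes 0.933 to 0.992) than between groups (0.814 to 0.931), with genes not being independent replicates. The third principal component, with 12.3% of the variance, separated replicate 2 of hESC and replicate 1 of each day 5 group from the other libraries of their groups. For this reason results on the PAX genes are also given without these 3 libraries.

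PAX3, PAX6 and PAX7 rose in neuroectoderm and PAX8 was at or under 0.13 RPKM in all 9 libraries. PAX3 reached 68.1 ± 17.8 RPKM (SD, n = 3), PAX6 28.4 ± 7.20 and PAX7 1.72 ± 0.545, against means under 0.13 RPKM for each of them in hESC and in mesendoderm. Of the 4 genes, 3 averaged at least 0.5 RPKM and were tested, and they passed that minimum only through their neuroectoderm libraries. All 3 were called higher in neuroectoderm than in hESC, where 21.9% of all genes tested were called higher and 22.3% lower, 44.2% in all. All 3 also lay above every hESC library, as did 25.4% of the genes tested. All 3 were called higher in neuroectoderm than in mesendoderm too, against 24.0% of all genes tested, and lay above every mesendoderm library, against 27.8%. In mesendoderm against hESC 0 of the 3 passed in limma, and 0 had an unadjusted p under 0.05, where 17.0% of genes were called higher and 18.1% lower, 35.1% in all. The comparisons share libraries and are not independent of each other. In bulk RNA, fewer cells of a type and less RNA per cell cannot be told apart, so these levels are those of the whole culture.

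**Figure D1:**
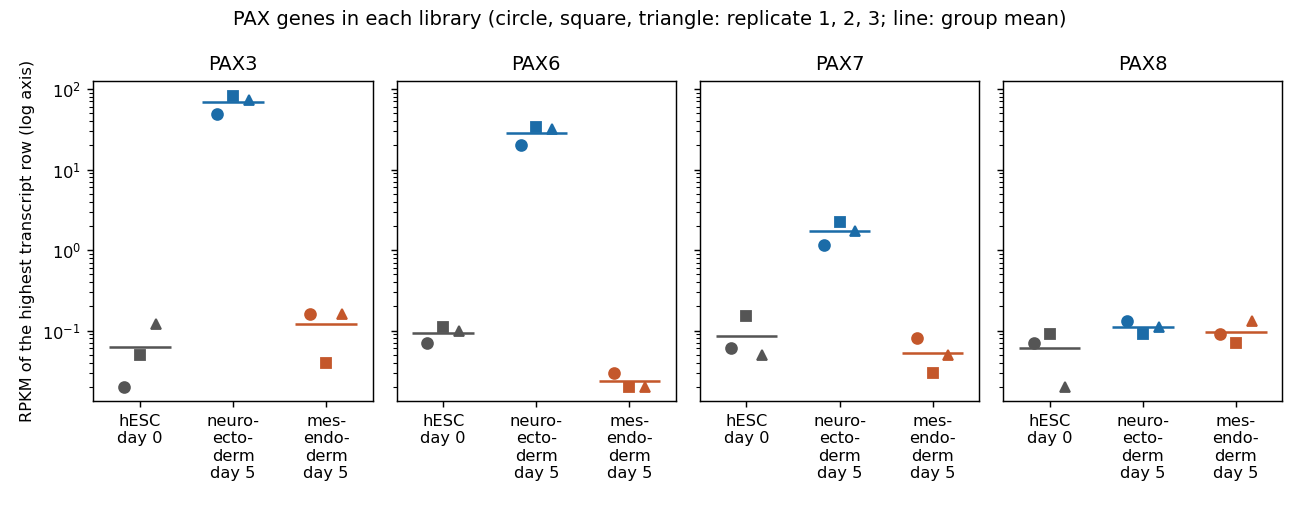
Level of PAX3, PAX6, PAX7 and PAX8 in each of the 9 libraries, in RPKM on a log axis, with 1 point per library and a line at the mean of each group of 3. In neuroectoderm PAX3 lies between 48.32 and 82.81, PAX6 between 20.12 and 33.43 and PAX7 between 1.17 and 2.26, all above every other library, while PAX8 lies between 0.02 and 0.13 in all 9.

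PAX3, which acts early in the dorsal neural tube and its borders, was listed in the hESC libraries at 0.02, 0.05 and 0.12 RPKM in replicates 1 to 3. The neuroectoderm libraries were at 48.32, 82.81 and 73.12 RPKM, and the mesendoderm libraries at 0.16, 0.04 and 0.16. All neuroectoderm libraries lay above every other library, whereas the hESC and mesendoderm values overlapped. PAX3 rose by 5.99 ± 0.18 (log2, adjusted p = 7.85e-08) against hESC, which ranked 4 among the 14473 genes tested by size of the rise. Against mesendoderm it was higher by 5.91 ± 0.18 (adjusted p = 3.47e-08), with rank 1. Between mesendoderm and hESC the difference was 0.074 ± 0.18 (adjusted p = 0.783). A fold change from hESC is not given, since the hESC values lie around the level that 3 reads would give on 1 kb.

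PAX6, a regulator of the early neural plate, the eye and the forebrain, had 0.07, 0.11 and 0.10 RPKM in hESC and 20.12, 33.43 and 31.53 RPKM in neuroectoderm. In mesendoderm it was listed at 0.03, 0.02 and 0.02 RPKM. Each neuroectoderm library exceeded every other library. Each mesendoderm library lay under every hESC library, at values around the level that 3 reads would give on 1 kb. PAX6 rose by 4.71 ± 0.17 in neuroectoderm against hESC (adjusted p = 1.47e-07), rank 17 among the genes tested. Its difference from mesendoderm was 4.81 ± 0.17 (adjusted p = 7.90e-08), rank 15. In mesendoderm against hESC the difference was -0.095 ± 0.17 with an adjusted p of 0.699, so it did not pass although the groups do not overlap, as held for 28.7% of all genes tested in that direction. That value depended on the scale, being -0.64 with a pseudocount of 0.1 in place of 1 (adjusted p = 0.0535), and was again -0.095 with an SE of 0.078 in a fit of only the 6 libraries compared (adjusted p = 0.366), an alternative chosen after seeing the data. An exact permutation test of 3 libraries against 3 cannot give a p under 0.1.

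PAX7, the close relative of PAX3 that serves in the dorsal neural tube, neural crest and muscle stem cells, was much lower. The hESC libraries had 0.06, 0.15 and 0.05 RPKM, the neuroectoderm libraries 1.17, 2.26 and 1.74, and the mesendoderm libraries 0.08, 0.03 and 0.05. Neuroectoderm stood above the other groups without overlap, and hESC and mesendoderm overlapped. PAX7 rose by 1.31 ± 0.14 against hESC (adjusted p = 8.36e-05, rank 541) and differed by 1.35 ± 0.14 from mesendoderm (adjusted p = 5.41e-05, rank 632). For mesendoderm against hESC the difference was -0.044 ± 0.14 (adjusted p = 0.839). With a pseudocount of 0.1 the rises against hESC were 3.28 for PAX7 and 7.17 for PAX6. PAX3 and PAX7 are paralogs with similar sequence, and how reads matching both were counted is not given in the sources used here.

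PAX8, the kidney, thyroid and inner ear member, was listed at 0.07, 0.09 and 0.02 RPKM in hESC, 0.13, 0.09 and 0.11 in neuroectoderm and 0.09, 0.07 and 0.13 in mesendoderm. The groups overlapped in every pairing. Its mean over all libraries was 0.0889 RPKM, so it was not in the main test. In the fit with no minimum the difference was 0.067 ± 0.038 for neuroectoderm against hESC (adjusted p = 0.229), 0.049 for mesendoderm against hESC (adjusted p = 0.387) and 0.018 for neuroectoderm against mesendoderm (adjusted p = 0.762). A change in PAX8 was not detectable at this depth.

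The order of levels within neuroectoderm was the same in its 3 libraries. PAX3 exceeded PAX6 by ratios of 2.40, 2.48 and 2.32 on the RPKM scale, and PAX6 exceeded PAX7 by 17.2, 14.8 and 18.1. The size of the first ratio depends on the PAX3 row chosen. The lowest PAX3 row had 39.18, 52.34 and 50.01 RPKM in these libraries, still above PAX6 in each. PAX3 stood above 96.0%, 96.7% and 96.3% of the 21417 genes in the respective libraries, PAX6 above 89.3%, 91.7% and 91.4%, and PAX7 above 43.1%, 49.5% and 46.6%. PAX8 was above 19.2%, 21.3% and 22.5%. The gap between PAX3 and PAX6 thus held in each library despite the spread of both genes. In hESC and mesendoderm no order of the 4 genes is read, since all values lie within 0.02 to 0.16 RPKM.

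Neuroectoderm replicate 1, one of the libraries that stood apart, was the lowest for PAX3, PAX6 and PAX7. Its values were 62.0%, 61.9% and 58.5% of the mean of replicates 2 and 3, while the median over all genes tested was 85.5% and the lower quartile 62.6%. PAX8 was at 130% on the same measure. Without this library and the pair of others that stood apart, the rises against hESC were 6.20 for PAX3 and 4.95 for PAX6 (both adjusted p = 2.61e-07) and 1.50 for PAX7 (adjusted p = 8.35e-05).

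The promoter windows of the 4 genes are shown because 3 of them rose together and 1 did not. Each is the 250 bases upstream of the gene's most upstream start in RefSeq, build GRCh38.p14, read 5′ to 3′ on the gene's strand. Capitals mark TAAT or its reverse complement ATTA, the core that homeodomains bind. The PAX3 window is chr2:222298999-222299248 on the minus strand and the PAX6 window is chr11:31817962-31818211 on the minus strand. The PAX7 window is chr1:18630596-18630845 on the plus strand and the PAX8 window is chr2:113278922-113279171 on the minus strand.
PAX3: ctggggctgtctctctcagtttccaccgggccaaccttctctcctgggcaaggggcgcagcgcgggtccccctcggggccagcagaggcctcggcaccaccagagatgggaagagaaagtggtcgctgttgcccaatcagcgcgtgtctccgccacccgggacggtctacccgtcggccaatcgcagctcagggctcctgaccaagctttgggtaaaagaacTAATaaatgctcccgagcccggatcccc
PAX6: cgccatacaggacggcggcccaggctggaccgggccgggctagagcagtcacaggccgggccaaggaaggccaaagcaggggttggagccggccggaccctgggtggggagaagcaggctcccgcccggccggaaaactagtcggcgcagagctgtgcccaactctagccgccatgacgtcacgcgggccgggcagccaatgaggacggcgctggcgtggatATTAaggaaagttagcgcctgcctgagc
PAX7: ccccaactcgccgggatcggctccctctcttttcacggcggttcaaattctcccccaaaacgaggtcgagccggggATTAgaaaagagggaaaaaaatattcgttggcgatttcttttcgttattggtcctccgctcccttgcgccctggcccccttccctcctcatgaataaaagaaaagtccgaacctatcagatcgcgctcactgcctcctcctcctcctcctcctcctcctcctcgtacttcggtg
PAX8: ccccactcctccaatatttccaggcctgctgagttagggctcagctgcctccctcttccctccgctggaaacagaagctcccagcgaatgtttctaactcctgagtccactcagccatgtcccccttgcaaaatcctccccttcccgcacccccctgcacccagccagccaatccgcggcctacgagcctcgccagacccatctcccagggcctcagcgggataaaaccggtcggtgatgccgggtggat

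The printed windows of PAX3, PAX6 and PAX7 each held 1 TAAT core and that of PAX8 held none, while 4 of the 9 start windows listed for PAX6 held it and 47.4% of all 35116 windows hold 1 or more. The letters GTCACG, searched as a paired-domain core, occurred once in the PAX6 window, 1 of the 9 for that gene, and in none of the other printed windows, and 7.93% of all windows hold them. The E-box CANNTG had 1 match in the PAX8 window and none in the other printed windows, but 6 of the 9 PAX6 windows held it, as do 61.8% of all windows. The remaining motifs had no match in any of the 4 printed windows. These were TAATTA, held by 4.35% of windows, the TCF/LEF core CTTTGA, held by 11.2%, and the SOX core ACAAT, held by 24.6% and by 1 of the 9 PAX6 windows. Both strands were searched, and TAAT and TAATTA overlap. The GC share was 64.0% for PAX3, 68.4% for PAX6, 54.8% for PAX7 and 61.6% for PAX8, against a median of 58.0% over all windows. The number of CpG was 17, 22, 18 and 11 in the same order, against a median of 11. These matches describe letters only, and for PAX6 they depend on the start chosen. Which of the 9 PAX6 starts was used in these cells was not tested.

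Transcript rows of PAX3 differed more than those of PAX6. The 8 PAX3 rows averaged 47.2 to 68.1 RPKM in neuroectoderm, with the long form NM_181457 highest on average. The short form PAX3b, NM_013942, had 51.89, 67.70 and 64.87 RPKM, and the short form PAX3a, NM_000438, had 39.18, 52.34 and 50.01. PAX3b stood above NM_181457 in neuroectoderm replicate 1 alone, at 107% of it, and at 81.8% and 88.7% in replicates 2 and 3. PAX3a was at 81.1%, 63.2% and 68.4% of it. The 7 rows of PAX6 lay within 98.4% and 100.1% of the row used. Of the 3 PAX7 rows, NM_001135254 stood at 91.5%, 83.2% and 100.6% of NM_002584, and the 4 PAX8 rows spanned 36.4% to 107.7% of the row used at levels of 0.04 to 0.14 RPKM in neuroectoderm. Transcripts of a gene share exons and therefore reads, so the rows are no independent measure of each form.

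**Figure D2:**
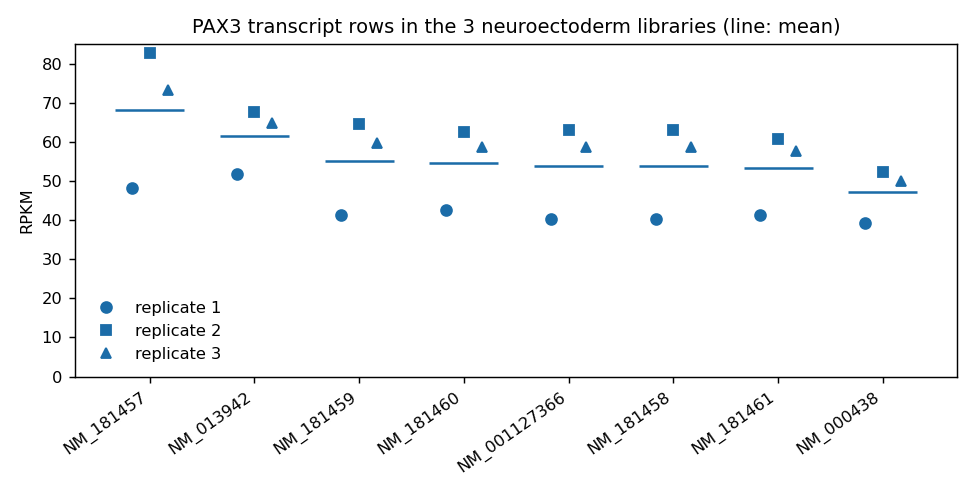
RPKM of the 8 PAX3 transcript rows in the 3 neuroectoderm libraries, 1 point per row and library, with RPKM on the vertical axis and a line at the mean of each row. NM_181457 lies at 48.32, 82.81 and 73.12, the short form PAX3b (NM_013942) at 51.89, 67.70 and 64.87, and the short form PAX3a (NM_000438) at 39.18, 52.34 and 50.01.

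The other PAX genes lay under the minimum and were not tested. PAX2, which serves the midbrain-hindbrain border, kidney and ear, had 0.11 ± 0.115 RPKM in hESC, 0.413 ± 0.163 in neuroectoderm and 0.21 ± 0.125 in mesendoderm, with overlapping groups. PAX9, a gene of the pharynx and teeth, was at 0.117 ± 0.0153 RPKM in mesendoderm, above every hESC library, as were 26.0% of the genes tested, and at 0.0433 ± 0.0451 in hESC. PAX1, PAX4 and PAX5 averaged under 0.1 RPKM in every group.

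Several genes had profiles over the 9 libraries closely like those of the PAX members. For PAX3 the 5 nearest by Pearson correlation of log2(RPKM + 1) were BARHL1, a homeobox gene of the developing diencephalon and cerebellum (r = 0.9998), ZBTB16, a zinc finger repressor (0.9995), LMX1A, a roof plate and midbrain regulator (0.9994), PAX6 (0.9993) and MAB21L2, an eye and brain gene (0.9993). For PAX6 they were RFX4 (0.9997), DMBX1 (0.9997), LMX1A (0.9996), NR2F1 (0.9996) and BARHL1 (0.9995). For PAX7 they included MEOX1 (0.998), WNT2B (0.9966), CHI3L1 (0.9963) and SORCS2 (0.9956). The neuroectoderm libraries were at 20.83, 30.17 and 27.72 RPKM for LMX1A, near those of PAX6, whereas the 6 other libraries had at most 0.09. BARHL1 had 3.16 ± 0.426 RPKM in neuroectoderm and under 0.06 in each other library. PAX3 and PAX7 correlated at 0.9858 and PAX6 and PAX7 at 0.9881. These 9 points share 3 high neuroectoderm libraries and 6 low ones, so a high r mostly repeats that split: 522 of the genes tested reached an r over 0.95 with PAX3, 526 with PAX6 and 442 with PAX7.

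Genes that overlap the PAX genes or lie farther along the same chromosome moved in different ways. Of those apart, PSD4 lies 6605 bases from PAX8, and TAS1R2 and KLHDC7A 90732 and 144871 bases from PAX7. SGPP2 and EPHA4 lie 124989 and 625684 bases from PAX3, and RCN1 273112 bases from PAX6. ELP4, an Elongator subunit gene whose span overlaps that of PAX6, stood at 10.09, 9.97 and 10.59 RPKM in hESC, 34.54, 35.71 and 33.58 in neuroectoderm and 7.26, 8.28 and 6.89 in mesendoderm. The neuroectoderm libraries were above and the mesendoderm libraries below every hESC library. ELP4 rose by 1.67 ± 0.10 in neuroectoderm against hESC (adjusted p = 2.06e-06) and fell by 0.41 in mesendoderm with an SE of 0.10 (adjusted p = 0.0107), a call lost without mesendoderm replicate 3 (adjusted p = 0.0582). Replicate 1 of neuroectoderm was at 99.7% of the mean of replicates 2 and 3 for ELP4, against 61.9% for PAX6. RCN1, a calcium-binding protein gene of the same neighbourhood, rose by 0.69 ± 0.14 in neuroectoderm against hESC (adjusted p = 0.00433), from 37.5 to 61.7 RPKM, and stood at 37.9 in mesendoderm (adjusted p = 0.955). The antisense RNA PAX6-AS1, matched by RefSeq accession, had 0.193 ± 0.150 RPKM in neuroectoderm and at most 0.0567 on average in the other groups, with overlap. Whether the counting used strand is not given, so reads of PAX6 and PAX6-AS1 may not be told apart.

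EPHA4, an ephrin receptor 625684 bases from PAX3, had 3.05, 3.41 and 3.44 RPKM in hESC. In neuroectoderm it had 36.03, 35.75 and 34.91 RPKM and in mesendoderm 3.06, 1.84 and 2.56. It rose by 3.09 ± 0.13 in neuroectoderm against hESC (adjusted p = 3.41e-07) without overlap. In mesendoderm against hESC it differed by -0.32 ± 0.13 (adjusted p = 0.0910), a difference that passed without mesendoderm replicate 1 (adjusted p = 0.0343) and without the 3 libraries that stood apart (adjusted p = 0.0285). CCDC140, whose span overlaps that of PAX3, was at 0.473 ± 0.135 RPKM in neuroectoderm, above every hESC library, and at 0.02 ± 0.0173 in hESC. It lay under the minimum. Its replicate 1 was at 63.0% of the mean of replicates 2 and 3, beside 62.0% for PAX3 and 102% for EPHA4. The lower quartile of all genes tested was 62.6% on this measure. Whether the counting used strand is not given, so reads of PAX3 and CCDC140 may not be told apart where they overlap. SGPP2 was at 0.217 RPKM in neuroectoderm and at most 0.0533 on average in the other groups.

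The tested neighbours of PAX7 and PAX8 were lower in neuroectoderm than in hESC. KLHDC7A, near PAX7, fell by 2.47 with an SE of 0.10 in neuroectoderm against hESC (adjusted p = 3.35e-07), from 6.38 ± 0.487 to 0.327 ± 0.0252 RPKM, and by 0.79 in mesendoderm (adjusted p = 0.000398). TAS1R2, a taste receptor gene beside PAX7, averaged at most 0.02 RPKM in any group. PSD4, an exchange factor gene beside PAX8, was at 0.72 ± 0.182 RPKM in hESC, 0.23 ± 0.0361 in neuroectoderm and 5.72 ± 0.780 in mesendoderm. It fell by 0.48 in neuroectoderm with an SE of 0.12 (adjusted p = 0.00945) and rose by 1.97 ± 0.12 in mesendoderm (adjusted p = 3.62e-06). The antisense RNA PAX8-AS1, matched by accession, averaged 0.05 to 0.117 RPKM over the groups.

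**Figure D3:**
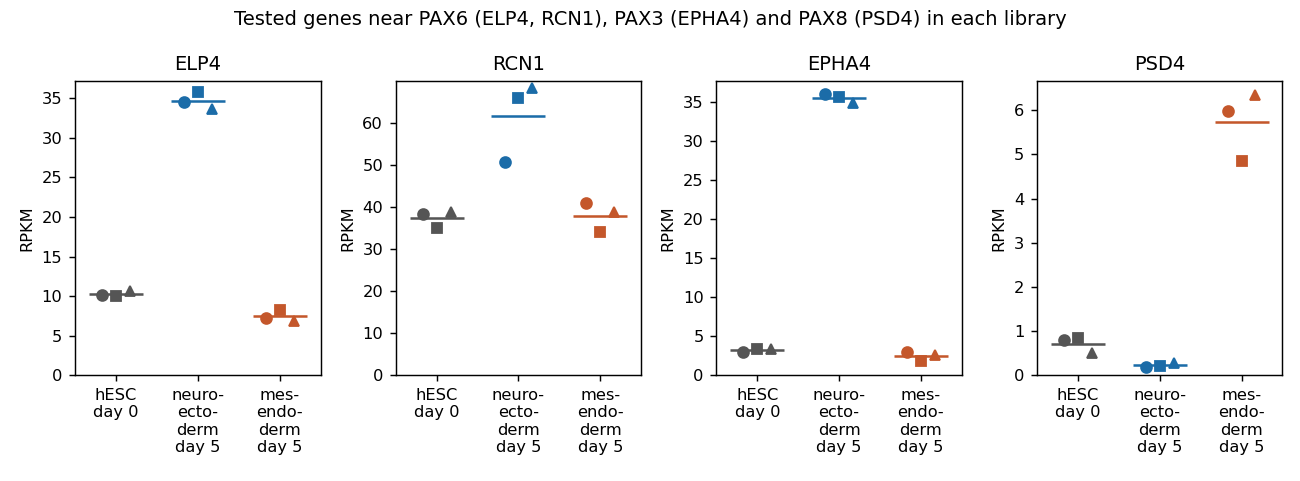
RPKM of 4 tested neighbours in each library: ELP4 and RCN1 near PAX6, EPHA4 near PAX3 and PSD4 near PAX8, on linear axes, with 1 point per library and a line at the mean of each group of 3. ELP4, RCN1 and EPHA4 lie higher in every neuroectoderm library than in any other library, and PSD4 lies between 4.85 and 6.35 in mesendoderm and under 0.85 elsewhere.

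Lists of genes that work with PAX proteins were counted. The counts and medians below, also those of the cell type markers, are to be read beside those over all genes tested. In neuroectoderm against hESC 21.9% of these were called higher and 22.3% lower, with a median of -0.024. In mesendoderm against hESC 17.0% were called higher and 18.1% lower, with a median of -0.017. A list with 1 of 7 or 2 of 8 genes called lies near these shares. Genes under the minimum are left out of the counts. A gene whose hESC mean was under it could be tested only through a higher group, which largely shut out a lower call against hESC. Some genes are shared between lists, so the counts are not independent. In the PAX-SIX-EYA-DACH network, which links PAX6 to the eye and PAX3 to muscle, 1 of 7 tested genes rose in neuroectoderm against hESC, DACH1 by 1.88 to 2.96 RPKM, and 1 fell. Leaving out the 3 libraries set apart above, 4 rose and none fell. Without neuroectoderm replicate 1 alone 3 rose, without hESC replicate 2 alone 2 rose, and the fall was lost without either of these, hESC replicate 3 or neuroectoderm replicate 2. The list median was 0.24. SIX3 and SIX6, which act beside PAX6 in the eye, averaged under 0.1 RPKM in every group. In mesendoderm 2 genes of the list rose and 3 fell, with a median of -0.11. Without hESC replicate 1 or 2, 1 rose and 2 fell, and 2 rose and 1 fell without hESC replicate 3 or mesendoderm replicate 2 or 3. Among 8 tested cofactors and Groucho corepressors of PAX proteins, 2 rose and 3 fell in neuroectoderm, with a median of -0.17. The corepressor gene TLE4 rose by 2.89 to 71.6 ± 17.2 RPKM, and TLE2 fell by 1.66, while PAXIP1, which binds PAX proteins, fell by 0.74. AES, a short Groucho relative, fell by 1.35, but this call was lost without hESC replicate 1 (adjusted p = 0.0705), without hESC replicate 3 (0.0632) and with only the 6 libraries of the groups compared (0.0518). In mesendoderm 2 cofactors rose and 1 fell, with a median of -0.21, or 2 rose and 4 fell without the 3 libraries and 3 fell without neuroectoderm replicate 1 alone.

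Partners of PAX6 in the eye field and forebrain were present in part. Of 15 genes, 7 were tested, 5 rose and 1 fell in neuroectoderm against hESC, with a median of 2.23. MAB21L2 rose by 5.38 to 41.9 ± 5.70 RPKM, MEIS2 by 3.16, MEIS1 by 2.70 and OTX2 by 2.23. Of the genes that rose, only OTX2 averaged at least 0.5 RPKM in hESC, at 36.7 RPKM. The others could be tested only through a higher group, so their direction was largely set by the minimum. RAX, SIX3 and SIX6 averaged under 0.1 RPKM in neuroectoderm, and LHX2 had 0.123 RPKM. In mesendoderm 2 genes of the list rose and 3 fell, with a median of -0.36. The 2 that rose were MEIS1 by 2.91 and MEIS2 by 1.38. MEIS1 did not pass in neuroectoderm against mesendoderm, with a difference of -0.21 (adjusted p = 0.448 in limma). Of the 12 genes that pattern the neural tube beside PAX6 or repress it in turn, 3 were tested and all 3 rose in neuroectoderm. IRX3 rose by 2.85, IRX5 by 2.03 and EMX2 by 1.02, with a median of 2.03. Their hESC means of 0.413, 0.23 and 0.30 RPKM were under the minimum, so they could be tested only through a higher group. The ventral genes NKX2-2, NKX6-2, NKX2-1 and OLIG2 averaged under 0.1 RPKM in every group. One of the 3, IRX3, was called higher in mesendoderm too, where the median was 0.20 and 1 gene was called lower without neuroectoderm replicate 1.

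PAX3 and PAX7 act at the neural plate border and in the dorsal neural tube. Of 15 genes listed for that domain, 14 were tested and 10 rose in neuroectoderm against hESC, with a median of 1.32. None fell in limma, with 1 lower at an unadjusted p under 0.05 and 1 called lower without neuroectoderm replicate 3. The 10 that rose averaged 0.0167 to 0.107 RPKM in hESC, under the minimum. They could be tested only through a higher group, so their direction was largely set by that minimum. LMX1A rose by 4.66, from 0.0667 to 26.2 ± 4.84 RPKM, MSX1 by 4.60, the dorsal ligand WNT1 by 3.99 and the zinc finger gene ZIC1 by 2.91. In mesendoderm, where PAX3 and PAX7 did not pass, 6 genes of this list rose and 3 fell, with a median of -0.014. The rises were led by MSX2 at 36.3 ± 4.10 RPKM and MSX1 at 23.5 ± 14.2, of which MSX2 was singled out after its values were seen. Of 13 tested neural crest genes, 5 rose and 6 fell in neuroectoderm, with a median of -0.20. The transcription factor gene SOX5 rose by 2.69, while the receptor gene ERBB3 fell by 2.88, ETS1 by 2.13 and FOXD3 by 1.77. SOX10, a defining crest gene, was at 0.917 ± 0.389 RPKM in neuroectoderm and at 1.17 ± 0.254 in hESC. In mesendoderm 6 crest genes rose and 1 fell, or 2 without the 3 libraries or without neuroectoderm replicate 1 alone, with a median of 0.45.

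Muscle and kidney partners were mostly low. Of 14 presomitic and muscle genes, 7 were tested, 1 rose and 3 fell in neuroectoderm against hESC, with a median of -0.25. The rise was MEOX1, a somite homeobox gene, by 1.58 to 2.19 ± 0.730 RPKM, and FGFR4 fell by 2.56, MET by 1.45 and TCF15 by 0.94. The muscle regulators MYF5, MYOD1 and MYOG averaged under 0.1 RPKM in every group, as did LBX1, a gene of migrating limb muscle precursors. In mesendoderm 3 of the list rose and none fell in limma, also at an unadjusted p under 0.05, with a median of 0.0048, and 1 fell without the 3 libraries or without neuroectoderm replicate 1 alone. For the kidney, otic and thyroid partners of PAX8, 6 of 18 were tested, 2 rose in neuroectoderm, or 1 without the 3 libraries or without any 1 of hESC replicates 1 to 3, neuroectoderm replicates 1 and 3 and mesendoderm replicate 3, and 4 rose in mesendoderm, with medians of 0.074 and 2.31. None fell in mesendoderm in limma, also at an unadjusted p under 0.05, or 1 without neuroectoderm replicate 1. The 4 genes in mesendoderm, named after their values were seen, were GATA3, GATA2, LHX1 and DLX3. GATA3 and GATA2 also stand among the trophoblast and amnion markers below, and EMX2 of the neural tube list is on this list too. In the same libraries PAX8 was at most 0.13 RPKM. The thyroid genes TG and FOXE1 averaged under 0.1 RPKM in every group.

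**Figure D4:**
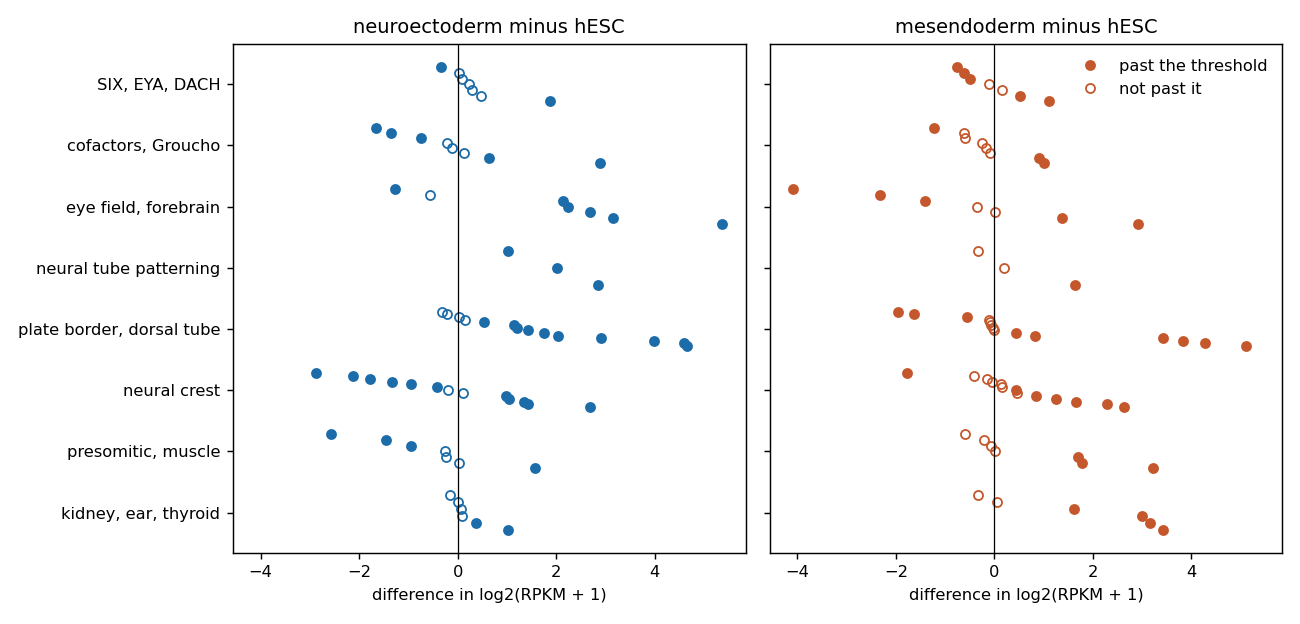
Difference in log2(RPKM + 1) of each tested gene of 8 lists, neuroectoderm minus hESC on the left and mesendoderm minus hESC on the right, with filled points past the threshold and open points not. The neural plate border list holds 10 filled points to the right of 0 in neuroectoderm, and the kidney, ear and thyroid list holds 4 in mesendoderm.

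Most tested neuroectoderm markers rose in neuroectoderm, as PAX3, PAX6 and PAX7 did, while smaller parts of the other cell type lists did. Of 10 neuroectoderm markers, 8 were tested and 7 rose in neuroectoderm against hESC. Their summed level was 309 to 365 RPKM per library against 92.7 to 107 in hESC. OTX2 alone had 171.77, 179.91 and 175.54 RPKM of the sum in neuroectoderm. In hESC only 2 of the 10 averaged at least 1 RPKM. SIX3 and LHX2, forebrain members of that list, were near 0. Neuron markers summed to 102 to 111 RPKM in neuroectoderm against 34.3 to 56.7 in hESC, but without MAP2, a microtubule-associated protein gene, the sums were 13.5 to 27.6 against 31.3 to 54.1. Of the 5 tested neuron markers 2 were called higher and 2 lower, of which the tubulin gene TUBB3 was no longer called without hESC replicate 1 (adjusted p = 0.114) or 3 (0.112) or without any 1 mesendoderm library (0.0504 to 0.0550). Neural crest genes summed to 26.7 to 33.2 against 46.1 to 49.0. In neuroectoderm against hESC, 2 of 10 tested primitive streak markers were called higher and 1 lower, or 1 and 0 without hESC replicate 1. Of 10 tested trophoblast and amnion markers 2 were called higher and 2 lower. Of 8 tested mesoderm markers 0 were called higher and 1 lower, or 1 and 1 without mesendoderm replicate 1. Of 4 tested endoderm markers 1 was called higher and 1 lower, or 1 and 0 without hESC replicate 2. In mesendoderm all 10 tested primitive streak markers and all 10 tested trophoblast and amnion markers rose, with sums of 160 to 285 and 231 to 388 RPKM. All 8 tested of 10 mesoderm markers rose there too, with sums of 145 to 208 RPKM against 22.1 to 24.2 in hESC. Of 9 endoderm markers 4 were tested, 2 rose (CER1 and GATA6, named after their values were seen) and 1 fell. GATA6 is on the mesoderm list too. The endoderm sum was 52.4 to 79.3 against 2.94 to 4.81, but only 2 of the 9 averaged at least 1 RPKM in mesendoderm. FOXA1 and FOXA2 were under 0.1 RPKM in each mesendoderm library. The endoderm marker that fell was no longer called without hESC replicate 1 or 2 or mesendoderm replicate 2. Of the 10 pluripotency markers, 8 fell in each lineage. The part of these cell types in the PAX levels was not tested.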

How the data were processed

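Total RNA of 9 libraries of the H9 line was profiled, 3 per group by title. Per the labels' protocols, DNase treatment and ribosomal RNA depletion came before preparation of Ion Total RNA-Seq libraries. The authors computed and deposited RPKM values for 38759 RefSeq transcript rows with 2 decimals. Per the submitters' processing notes, TopHat, TopHat2 2.0.13 and Bowtie2 were used with hg19. How reads were counted, and whether by strand, is not given in the sources used here.

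Each of 21417 symbols was represented by its row with the highest mean. The 14473 genes averaging at least 0.5 RPKM were analysed as log2(RPKM + 1), a pseudocount of 1, in 1 model with limma 3.58.1 in R 4.3.3, group as term and a mean-variance trend, with Benjamini-Hochberg adjustment and a threshold of 0.05. RPKM values are not counts, so no count test was used. Read steps were whole within 0.1 read for 96.4% to 99.4% of 137 to 172 microRNA values per library. The script was tested on simulated data.

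The members and lists were chosen with earlier results of these data known. Genes named are the members, the other PAX genes, their neighbours, up to 4 genes per list with the largest difference in neuroectoderm against hESC among those past the threshold whose higher group averaged at least 1 RPKM, and the 5 genes most like each member. Some genes that this rule or the lists hold are not reported here. PAX6-AS1 and PAX8-AS1 were matched by accession to rows under older names. Of 179 list symbols 176 matched. Promoters and gene neighbours are from RefSeq GRCh38.p14, a build other than that of the values, and the only coordinates printed from it are those of the promoter windows. Overlap of and distance between neighbouring genes were read in that build. Deviations from the group means of same-numbered neuroectoderm and mesendoderm libraries correlated at 0.392, 0.247 and 0.229 over genes. Neuroectoderm replicate 3 correlated at 0.241 with mesendoderm replicate 2, above its own number. Same-numbered libraries of hESC and a day 5 group correlated at -0.738 to 0.401. A pairing by number was therefore not settled by the data. The model reported used no pairing, and the replicate block was an alternative only. Alternatives covered the pseudocount, the minimum, scaling, transcript choice, the block and left-out libraries.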

Additional observations from a re-analysis of the deposited data

Results flagged for a closer look

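PAX6 stood above every hESC library in all 3 neuroectoderm libraries and below every hESC library in all 3 mesendoderm libraries, and the lineages differed by 4.81 on the log2 scale (neuroectoderm minus mesendoderm, adjusted p = 7.90e-08 in limma). The adjusted p between mesendoderm and hESC was 0.699 in limma. Those values, 0.02 to 0.03 against 0.07 to 0.11 RPKM, lie around the level that 3 reads would give on 1 kb. Of all genes tested, 25.4% lay above every hESC library in neuroectoderm and 28.7% lay below every hESC library in mesendoderm. ELP4, beside PAX6, had the same arrangement as PAX6, but at 6.89 RPKM or above in every library, and a difference of 2.07 (adjusted p = 3.75e-07 in limma). PSD4, beside PAX8, had the opposite one, lower in neuroectoderm and higher in mesendoderm, with a difference of -2.44 (adjusted p = 4.21e-07 in limma). The differences from hESC of both lineages share the hESC libraries.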

How the results depend on the processing

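PAX3, PAX6 and PAX7 were called higher in neuroectoderm than in hESC under every alternative that gave a value, with differences of 5.83 to 8.72, 4.58 to 7.17 and 1.17 to 3.28. With 1 library left out at a time the ranges were 5.83 to 6.21 for PAX3, 4.58 to 4.94 for PAX6 and 1.17 to 1.46 for PAX7. Signs turned for values not past the threshold: PAX7 in mesendoderm against hESC was 0.022 with quantile normalization (adjusted p = 0.9095) and -0.044 as reported, and PAX8 in neuroectoderm against mesendoderm was -0.0076 as the sum of its rows and 0.018 as reported. PAX8, untested, moved with the pseudocount: in neuroectoderm against hESC it was 0.41 at 0.1, 0.12 at 0.5 and 0.16 as the sum of its rows, in mesendoderm against hESC 0.31, 0.092 and 0.17, and in neuroectoderm against mesendoderm 0.10 at 0.1. A pseudocount of 1 compresses values this low, so a smaller pseudocount widens the same difference. For the sum of rows the cause was not tested. PAX7 lay under the stricter minimum of 1 RPKM, and PAX8 has no adjusted p wherever the minimum applied. Taking each of 27809 transcript rows as a feature of its own gave 12644, 9911 and 13858 called rows in the 3 comparisons, against 6392, 5077 and 6965 genes, since more features were tested. Leaving out small RNA and rescaling moved the median of all genes to -0.123 in both comparisons with hESC, from -0.024 and -0.017, and the higher and lower calls became 2063 and 3517 (37.0% higher, 49.5% before) in neuroectoderm and 1717 and 2772 (38.2%, 48.4% before) in mesendoderm. Same-numbered libraries of hESC and a day 5 group correlated at -0.738 to 0.401 in their deviations and share only a number, and not every neuroectoderm library correlated best with its own number in mesendoderm. With the replicate block PAX3 was 5.99 (adjusted p = 4.92e-06), 5643 genes were called in neuroectoderm against hESC, and no call of the PAX genes changed. With the block on only the 6 libraries compared, 6731 genes were called in neuroectoderm against mesendoderm, where PAX3, PAX6 and PAX7 stayed called, and 3486 in neuroectoderm against hESC, with RCN1 (adjusted p = 0.0766) no longer called there and ELP4 (0.0550) no longer called in mesendoderm against hESC. Fits on only the 6 libraries compared were chosen after seeing the data. Depth limits every value near 0.0429 to 0.0814 RPKM.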
